A study of Mus musculus with 23 samples.

Results

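MERP tumours were compared with germline *Ptch1*+/- tumours, the pair of established mouse models of Sonic hedgehog medulloblastoma in the series. Every array labelled with either model was taken, which gave 5 MERP tumours and 4 *Ptch1*+/- tumours, 9 of the 23 arrays of the series. Both carry a disrupted *Ptch1*, and they differ in how. In MERP mice the gene is disrupted after birth and only in cells that express *Math1*, also called *Atoh1*. The study defines MERP as *Atoh1*-CreERT2 with *Ptch1* fl/fl. In *Ptch1*+/- mice 1 copy is disrupted in the germline, in every cell of the animal, stroma included. All 9 samples are total RNA with the strain given as CD1. Age, sex, day of hybridisation, and whether each tumour came from an animal of its own are not given in the labels. The p-values therefore measure the spread between samples, and those of the gene fits take it within groups over all 23 arrays. Cerebellar granule neuron precursors (GNPs) of postnatal days 4 to 7 (n = 3) and normal adult cerebellum (n = 4), whose alleles are not labelled as disrupted, are given as reference levels. The other arrays, CRISPR and GTML tumours, entered only the shared estimate of the spread.

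*Ptch1* encodes the receptor that holds the signal transducer Smoothened inactive until a Hedgehog ligand binds. When the receptor is lost, Smoothened acts without ligand, GLI transcription factors switch on target genes, and GNPs of the external granule layer go on dividing. Medulloblastomas that arise in this way keep many features of GNPs, and in mice with 1 germline mutant copy they arise in a minority of animals, usually after the second copy is lost or silenced.

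Levels are log2 RMA intensities, 1 probe set per gene, and a difference is MERP minus *Ptch1*+/- on that scale. A call is an adjusted p under 0.05 over all genes, and it is said to hold where it was made with the same sign under 5 scalings of the arrays. Markers that define the tumour were well above background in all 9 arrays. The proliferation marker *Mki67* differed by -0.38 (adjusted p = 0.24), and the granule lineage factors *Zic1* and *Zic2* by -0.45 (adjusted p = 0.25) and -0.30 (adjusted p = 0.21). Sex-linked transcripts divided the arrays. *Xist*, expressed from the inactive X chromosome, lay between 12.35 and 13.80 in all 5 MERP tumours. It was 12.73 in *Ptch1*+/- array 3 and between 5.94 and 6.20 in the other 3 *Ptch1*+/- arrays. *Eif2s3y*, a Y-linked translation factor, read 10.12, 10.25, 3.14 and 10.17 in the *Ptch1*+/- arrays and 3.05 to 3.74 in the MERP arrays. The Y-linked demethylases *Kdm5d* and *Uty* followed *Eif2s3y*, and *Usp9y* was near background in both groups. Only 1 *Ptch1*+/- array shared the pattern of the MERP arrays, and what sex contributes to the results below was not tested. Pairs of arrays correlated at 0.979 to 0.992 within MERP, 0.977 to 0.992 within *Ptch1*+/- and 0.960 to 0.981 between them, over genes, which are not independent replicates.

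*Ptch1* itself was higher in MERP tumours. The brightest of its 3 probe sets read 13.06, 13.19, 13.24, 12.75 and 12.98 in MERP arrays 1 to 5 and 11.84, 11.50, 12.26 and 11.80 in *Ptch1*+/- arrays 1 to 4. Every MERP array lay above every *Ptch1*+/- array, a difference of 1.19 (SE 0.18, limma adjusted p = 5.931e-05) or 2.29-fold. Its level was 11.82 ± 0.19 in GNPs (SD, n = 3) and 11.95 ± 0.05 in adult cerebellum (n = 4), both near the *Ptch1*+/- level. The second probe set differed by 0.94 (SE 0.42) and the third by 0.31 (SE 0.12), and neither passed over all probe sets (adjusted p = 0.092 and 0.056). Both read lower in GNPs and adult cerebellum than in either tumour. Where these probes lie relative to the disrupted exons is not known here, so a *Ptch1* level does not measure intact receptor and is no check of the labels.

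Transcripts of the pathway were read in 3 lists, the ligands, receptors and co-receptors, the transducers and GLI factors, and the target genes. Of these lists the target genes read its transcriptional output. Among all 18193 genes, 25.9% were higher and 6.08% lower in MERP, the background for the counts of every list below. Of 14 ligands and receptors 1 was higher and 1 lower, of 16 transducers and GLI factors 3 were higher and 2 lower, and of 18 target genes 3 were higher and 2 lower. The medians of the 3 lists were 0.09, 0.02 and 0.03, beside 0.14 over all genes.

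*Gli1*, the factor and target most often used to read the pathway, was 9.86, 10.49, 10.94, 10.26 and 10.27 in the MERP arrays and 10.71, 9.85, 10.42 and 10.39 in the *Ptch1*+/- arrays. The groups overlapped throughout, with a difference of 0.02 (SE 0.21, adjusted p = 0.96). The further targets *Mycn*, a driver of precursor division, and *Hhip*, a membrane decoy for the ligand, differed by 0.03 (adjusted p = 0.91) and 0.12 (adjusted p = 0.88). The signs of all 3 of these values turned under other array scalings. The activator *Gli2* differed by -0.44 (adjusted p = 0.075) and the co-receptor *Boc* by -0.44 (adjusted p = 0.066).

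*Smo*, which encodes Smoothened, fell while the receptor that restrains it rose. Its levels were 11.19, 10.63, 10.76, 11.00 and 10.54 in MERP and 11.88, 11.69, 11.43 and 11.63 in *Ptch1*+/- tumours. The ranges were apart, the difference was -0.83 (SE 0.23, adjusted p = 0.0092), and both further *Smo* probe sets were also lower in MERP. *Smo* lies on chromosome 6, whose genes as a whole were raised in the *Ptch1*+/- arrays as described further on. Against the GNP mean, the chromosome 6 medians were 0.26, 0.09, 0.09, 0.40 and -0.03 in MERP arrays 1 to 5. They were 0.43, 0.44, 0.41 and 0.41 in *Ptch1*+/- arrays 1 to 4. The part of the chromosome in the *Smo* difference was not tested.

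*Gli3*, mainly a repressor of targets, was 7.76, 7.03, 7.0, 6.18 and 8.78 in MERP and 5.37, 6.02, 6.34 and 5.95 in *Ptch1*+/- tumours. Only MERP array 4 reached into the *Ptch1*+/- range, and the difference was 1.43 (SE 0.34, adjusted p = 0.0025), towards the GNP level of 8.63. *Sufu*, which retains GLI factors in the cytoplasm, fell by 0.54 (adjusted p = 0.021), but without any of 4 arrays in turn (*Ptch1*+/- 3 or 4, MERP 1 or 5) it missed the threshold, with adjusted p between 0.053 and 0.092. *Prkaca*, the kinase subunit that marks GLI proteins for processing, rose by 0.42 as deposited but not under all array scalings, at 0.14 with arrays centred on the gene median (adjusted p = 0.42).

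2 of the targets that passed have other roles as well. *Igf2*, an imprinted growth factor that the pathway is known to raise in precursors, was 10.66, 9.14, 10.48, 8.17 and 12.92 in MERP and 7.23, 8.89, 8.95 and 7.87 in *Ptch1*+/- tumours. MERP arrays were widely spread, and MERP array 4 lay within the *Ptch1*+/- range. The difference of 2.04 (SE 0.67, adjusted p = 0.024) was lost without *Ptch1*+/- array 1, *Ptch1*+/- array 4 or MERP array 5 (adjusted p = 0.077, 0.065 and 0.066), and GNPs were at 12.02. *Sfrp1*, a secreted Wnt antagonist, was 12.72, 12.47, 12.48, 12.43 and 12.19 in MERP and 13.998, 13.57, 12.77 and 13.25 in *Ptch1*+/- tumours. Its ranges were narrowly apart, and the difference of -0.94 (SE 0.34, adjusted p = 0.042) missed the threshold without any of 7 arrays, with adjusted p between 0.059 and 0.13 without *Ptch1*+/- 1, 2 or 4 or MERP 2, 3, 4 or 5, and did not hold under all scalings. *Olfml2b*, a secreted olfactomedin family protein, fell by 1.28 (SE 0.33, adjusted p = 0.0050), with every MERP array below every *Ptch1*+/- array.

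**Figure D1:**
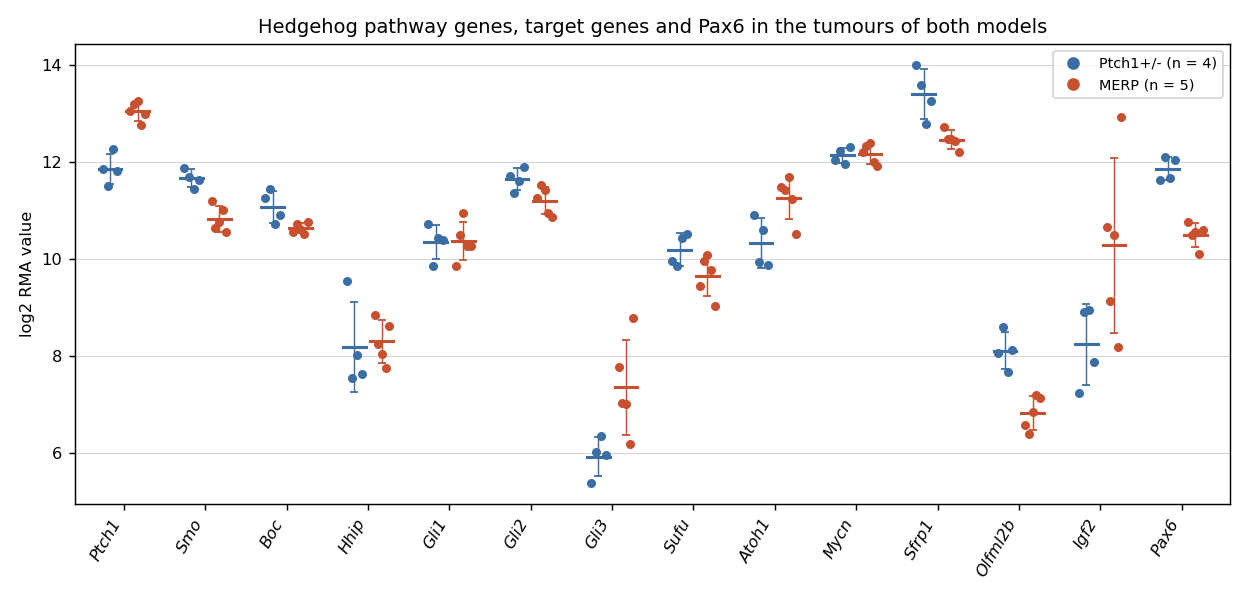
Log2 RMA level (vertical axis) of Hedgehog pathway genes, target genes and *Pax6* in each of the 4 *Ptch1*+/- and 5 MERP arrays; points are single arrays and bars the mean ± SD of a group. *Ptch1* lies higher and *Smo*, *Olfml2b* and *Pax6* lower in every MERP array, while *Gli1*, *Mycn* and *Hhip* overlap.

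Genes of GNP identity went in both directions, 2 of 18 higher and 2 lower, with a median of 0.06. *Pax6*, a paired-box factor of the granule lineage, was 10.76, 10.49, 10.54, 10.09 and 10.59 in MERP and 11.63, 12.10, 11.66 and 12.03 in *Ptch1*+/- tumours. All MERP arrays lay below, with a difference of -1.36 (SE 0.15, adjusted p = 2.12e-06). The MERP level of 10.50 ± 0.25 (SD, n = 5) was that of adult cerebellum (10.49), and the *Ptch1*+/- level was nearer that of GNPs (12.18). *Atoh1*, the factor that keeps precursors undifferentiated and whose cells carry the MERP deletion, was 11.47, 11.41, 11.68, 11.23 and 10.52 in MERP and 10.90, 9.93, 10.59 and 9.86 in *Ptch1*+/- tumours. MERP array 5 lay inside the *Ptch1*+/- range, and the rise of 0.94 (SE 0.25, adjusted p = 0.0070) did not hold under all scalings. *Atoh1* also lies on chromosome 6, where it went against the chromosome. *Eya1*, a phosphatase that acts with homeobox factors, rose by 1.72 (SE 0.41) with the groups apart. *Neurod1*, a factor of granule neuron differentiation, fell by 0.94 (SE 0.26).

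Over all genes 5818 (32.0%) passed an adjusted p of 0.05, 4711 higher and 1107 lower in MERP, with no minimum fold. This split rested on how the arrays were scaled. The median of the gene table was 7.32 ± 0.07 in MERP (SD, n = 5) and 7.04 ± 0.13 in *Ptch1*+/- arrays (n = 4, exact two-sided permutation p = 0.032, 0.064 after adjustment over 4 array measures). *Ptch1*+/- array 1, at 7.22, lay among the MERP arrays (7.21 to 7.39) and the other 3 lay below. With each array centred on that median, 2094 genes (11.5%) were higher and 3093 (17.0%) lower.

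The opposite shift was seen in the probe sets to which no gene is annotated. Their median was 4.78 ± 0.08 in MERP and 5.01 ± 0.12 in *Ptch1*+/- arrays (exact permutation p = 0.032, 0.064 adjusted), and 6.12% of the 9160 were higher and 27.4% lower in MERP. Of the 34945 probe sets of 1 gene, 22.6% were higher and 11.3% lower. A gap between 3' and 5' control probe sets, which widens when RNA is degraded, was 1.58 ± 0.35 in MERP and 1.83 ± 0.17 in *Ptch1*+/- arrays (exact permutation p = 0.25), and with this gap as a covariate 5333 genes passed. Genes called with the same sign under all 5 scalings, those described here as holding, were 2064 higher (11.3%) and 849 lower (4.67%) in MERP.

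Other probe sets of these genes were used to see how far a direction was shared by measurements made with different probes. The higher genes had 1894 other probe sets, of which 75.9% had the same sign, 46.2% were also called higher and 8.82% were called lower. The lower genes had 1279, of which 77.5% had the same sign, 44.2% were also called lower and 3.05% were called higher. Among other probe sets above the array median the same sign was seen in 82.9% and 85.4%. A direction could thus differ between probe sets of 1 gene, and further probe sets are given below for several genes that have them. Of the 15 largest rises below 6 had other probe sets, and for 4 of these any was called higher. Of the 15 largest falls 11 had others, and for 4 any was called lower. None was called the opposite way. No other probe set was called for *Grb10*, *Foxf2*, *Eif2s3y*, *Kdm5d*, *Galc*, *2610024D14Rik*, *8430419K02Rik*, *Ret* or *Cacna1e*.

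**Figure D2:**
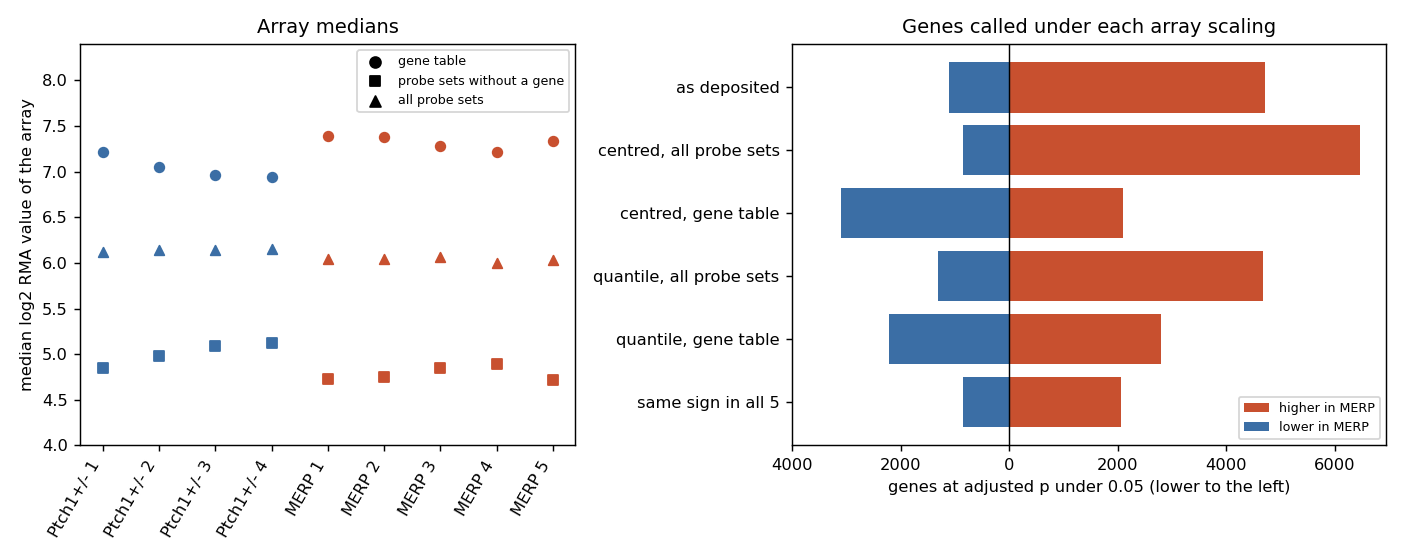
Left, median log2 RMA value of each array over the gene table, all probe sets and probe sets without a gene; right, number of genes called higher and lower in MERP under each of 5 array scalings and under all 5. The gene medians of 3 *Ptch1*+/- arrays lie below all MERP arrays, and the calls shift from 4711 higher and 1107 lower as deposited to 2094 higher and 3093 lower after centring on the gene table.

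The 15 genes with the largest rises that held ranged from 2.53 to 5.42, and in 11 of them the groups did not overlap, beside 18.3% of all genes with every MERP array above (21.8% apart in either direction). The first after *Xist* was *Pdlim3*, a PDZ and LIM domain protein of the actin cytoskeleton. It was 12.16, 11.65, 11.45, 11.16 and 11.37 in MERP and 7.66, 5.90, 6.26 and 6.07 in *Ptch1*+/- tumours. No array came near the other group, and the difference of 5.09 (SE 0.58, adjusted p = 3.86e-06) was 34.0-fold. MERP tumours also lay above GNPs (9.18) and adult cerebellum (6.23).

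*Mdk*, the heparin-binding growth factor midkine, was 9.79, 9.26, 8.27, 8.81 and 8.58 in MERP and 5.55, 5.75, 5.57 and 5.42 in *Ptch1*+/- tumours. It was 10.3-fold higher (3.37, SE 0.33, adjusted p = 8.889e-07), with GNPs at 9.67 and adult cerebellum at 7.61, so the *Ptch1*+/- tumours were the low group. *Foxf2*, a forkhead factor, was between 8.29 and 8.82 in all MERP arrays and 6.68, 4.79, 6.41 and 4.68 in *Ptch1*+/- arrays. *Lin7a*, a scaffold of cell polarity and synapses, was 10.48 to 11.49 in MERP against 7.09 to 8.79 (difference 3.06, SE 0.44), and both of its other probe sets were higher too. *Grb10*, an imprinted adaptor of insulin and IGF receptors, was 8.77, 7.06, 8.37, 5.34 and 9.55 in MERP and 4.59, 4.70, 5.32 and 5.05 in *Ptch1*+/- tumours. MERP array 4 was hardly above the *Ptch1*+/- arrays and the other 4 were well above, and GNPs were at 10.95.

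Several of the largest rises were carried by part of the arrays. *Pvalb*, the calcium buffer parvalbumin, was 7.91 to 8.88 in 4 MERP arrays and 12.06 in MERP array 5, all above the *Ptch1*+/- arrays at 6.25 to 6.78. *AI506816*, a transcript without a described function, was between 8.50 and 9.14 in 4 MERP arrays and 4.56 in MERP array 5, near the *Ptch1*+/- arrays at 4.34 to 4.41. *Wif1*, a secreted Wnt inhibitor, was 7.53, 9.61, 6.74, 7.06 and 4.46 in MERP against 5.49, 3.34, 3.63 and 3.52. For *AI506816* and *Wif1* the *Ptch1*+/- level is near background, so their differences of 3.56 and 3.09 are lower limits.

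The keratin *Krt12* was 10.07, 10.39, 6.92, 10.94 and 10.64 in MERP against 8.69, 5.96, 5.61 and 6.38, and MERP array 3 and *Ptch1*+/- array 1 crossed. *Krt10*, *Itih3*, a hyaluronan-binding plasma protein chain, *Tmem163*, a zinc transporter, and *Neurod4*, a neurogenic basic helix-loop-helix factor, rose by 2.53 to 2.77 and lay above in every MERP array.

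The 15 largest falls that held ranged from 2.51 to 5.02, and 10 of them did not overlap, beside 3.56% of all genes with every MERP array below. *Eif2s3y*, *Kdm5d* and *Uty* were 3 of the 15, and *Uty* passed only while *Ptch1*+/- arrays 1, 2 and 4 were all kept (adjusted p = 0.067, 0.075 and 0.063 without each). *Malat1*, an abundant nuclear long noncoding RNA, was 9.05, 9.68, 9.97, 8.30 and 10.90 in MERP and 12.58, 14.02, 13.995 and 14.07 in *Ptch1*+/- tumours. The groups were apart by more than 1 unit, the difference was -4.09 (SE 0.52, adjusted p = 1.033e-05), and 5 of 6 other *Malat1* probe sets also fell. MERP tumours were at the GNP level (9.24) and *Ptch1*+/- tumours at that of adult cerebellum (13.34).

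*Galc*, a lysosomal galactosidase of myelin lipids, was 4.40, 4.13, 4.10, 4.39 and 8.44 in MERP and 9.38, 9.41, 9.0 and 8.91 in *Ptch1*+/- tumours. Of the MERP arrays 4 were near background and the fifth lay close to the *Ptch1*+/- arrays. *Scg2*, a protein of secretory granules, was 6.48, 5.25, 5.45, 5.23 and 5.55 in MERP against 9.81, 9.47, 7.67 and 8.41. The groups were apart, and the difference was -3.25 (SE 0.59).

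Neuronal receptors and channels were also among them. *Ret*, a receptor kinase for ligands of the glial cell line-derived neurotrophic factor family, was 5.48 to 6.82 in MERP against 8.20 to 10.63 (difference -2.91, SE 0.40). *Grin2b*, a subunit of NMDA receptors, was 7.40, 5.36, 5.96, 4.95 and 5.24 in MERP against 7.65, 9.17, 7.75 and 9.22, with 1 of 3 other probe sets lower as well. *Cacna1e*, a voltage-gated calcium channel, was 7.57 to 8.42 in MERP against 9.96 to 10.91 (difference -2.51). *Ret*, *Grin2b* and the uncharacterised transcript *6330415B21Rik* are the 3 of the 15 on chromosome 6.

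The remaining falls were of *Zbed6*, a zinc finger repressor known for binding at *Igf2*, and 4 uncharacterised transcripts. *Zbed6* was 6.17 to 6.88 in MERP and 6.85, 9.12, 10.51 and 10.05 in *Ptch1*+/- tumours. *Ptch1*+/- array 1 lay inside the MERP range and the other 3 far above. *2610024D14Rik* also had its lowest *Ptch1*+/- level in array 1 (4.57, against 7.27 to 8.71 in the other 3 and 3.13 to 3.80 in MERP). *Gm10033* fell by 3.33, *8430419K02Rik* by 2.96 and *Gm5089* by 2.63, each with the groups apart. Of the 15, 5 were near background in MERP, where a fall is a lower limit.

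**Figure D3:**
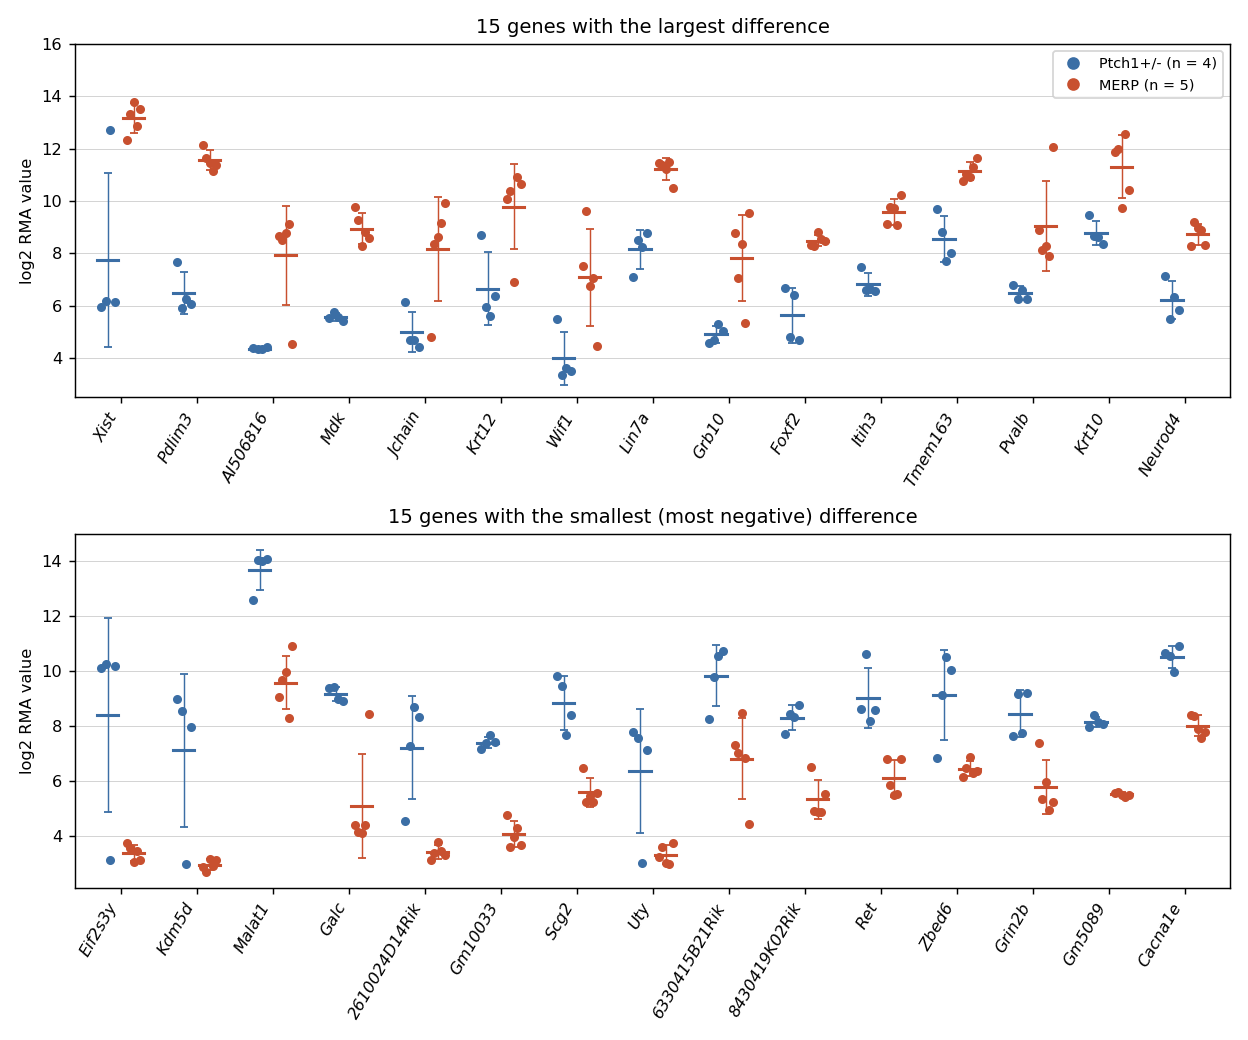
Log2 RMA level in each array of the 15 genes with the largest and the 15 with the smallest MERP minus *Ptch1*+/- difference among genes called with the same sign under 5 scalings. Points are single arrays and bars the mean ± SD, with *Ptch1*+/- array 3 in the MERP range for *Xist*, *Eif2s3y*, *Kdm5d* and *Uty* and *Ptch1*+/- array 1 nearest to the MERP arrays for *Malat1*.

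Genes of mitosis were mostly higher in MERP tumours as deposited. Of 23 genes of mitosis and the G2/M transition 17 were higher, none was lower (median 0.63, beside 0.14 over all genes), and 7 held under all scalings. After gene-table centring 7 were higher and 1 lower, with a median of 0.36 beside -0.14. When each array was left out in turn 15 to 17 were higher. Differences in the share of dividing cells and in RNA per cell cannot be told apart in tumour pieces, here or in any list that follows.

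*Ccnb2*, a cyclin B that drives entry into mitosis, was 11.04, 10.64, 10.46, 10.89 and 10.93 in MERP and 10.32, 9.38, 9.50 and 9.05 in *Ptch1*+/- tumours. The ranges were apart, with *Ptch1*+/- array 1 the nearest, and the difference was 1.23 (SE 0.22, adjusted p = 0.00024). The mitotic kinases *Aurkb* and *Plk1* rose by 1.01 and 0.81, and *Ube2c*, the ubiquitin-conjugating enzyme of the anaphase-promoting complex, by 0.74. Each was higher in 5 of 5 MERP arrays than in any *Ptch1*+/- array. *Cdc20*, the activator of that complex, rose by 0.52 and the mitotic kinase *Cdk1* by 0.39, neither under all scalings, and *Cdk1* was lost without any of 5 arrays (*Ptch1*+/- 2 or 4, MERP 1, 2 or 4, adjusted p between 0.055 and 0.13). *Mki67* and *Top2a*, a topoisomerase of dividing cells that differed by 0.18, did not pass.

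Promoters of G2/M genes are known to carry a cell cycle genes homology region, the CHR element (TTTGAA or TTCGAA), often near CCAAT boxes. Most members of this list moved together, and promoter bases of 4 of them are shown. They are the 180 bases before the first listed RefSeq start (mouse GRCm38.p6, 5' to 3' on the gene's strand). The 4 were picked from the called members because a CHR element lies within those bases, so each sequence had to show one. *Plk1* has its CHR element only after the start, and *Ccnb2* has another there that is not shown. CHR elements and CCAAT boxes on either strand are in capitals. The windows are chr9:70421555-70421734 on the minus strand for *Ccnb2*, chr2:164769749-164769928 on the plus strand for *Ube2c*, chr4:118437344-118437523 on the minus strand for *Cdc20* and chr10:69352913-69353092 on the minus strand for *Cdk1*.
Ccnb2: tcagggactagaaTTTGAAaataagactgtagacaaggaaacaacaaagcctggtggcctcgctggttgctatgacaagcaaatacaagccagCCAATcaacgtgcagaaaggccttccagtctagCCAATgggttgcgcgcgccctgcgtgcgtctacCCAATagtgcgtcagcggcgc
Ube2c: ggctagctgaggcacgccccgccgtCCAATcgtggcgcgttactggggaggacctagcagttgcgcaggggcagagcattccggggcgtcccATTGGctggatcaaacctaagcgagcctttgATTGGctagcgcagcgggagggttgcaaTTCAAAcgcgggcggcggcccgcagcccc
Cdc20: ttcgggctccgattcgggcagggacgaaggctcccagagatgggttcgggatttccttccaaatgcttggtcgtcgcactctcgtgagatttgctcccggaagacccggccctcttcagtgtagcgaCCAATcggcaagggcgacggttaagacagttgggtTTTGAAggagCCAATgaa
Cdk1: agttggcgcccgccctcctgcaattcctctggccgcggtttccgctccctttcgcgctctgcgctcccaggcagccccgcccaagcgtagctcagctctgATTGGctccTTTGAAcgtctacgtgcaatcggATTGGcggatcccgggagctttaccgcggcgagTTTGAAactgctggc
In windows of 300 bases, from 250 before to 50 after the start, a CHR element was found in 15 of the 18 promoters of the mitosis list that could be matched (83.3%) and in 15.04% of the 14452 promoters of measured genes. A CCAAT box was found in 83.3% and 38.2%. The genes that held as higher in MERP had a CHR element in 15.3% of 1711 promoters, near the share of all promoters. The GLI site GACCACCCA was in 0.201% of all promoters and in none of the 10 Hedgehog target promoters matched. Matches are of letters on either strand within these windows only.

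Of 24 DNA replication genes 9 were higher and 1 lower (median 0.36), and 14 were higher without *Ptch1*+/- array 1. After gene-table centring 5 were higher and 1 lower (median 0.08), and the same numbers held under all scalings. *Rfc4*, a clamp loader subunit, rose by 1.32, *Cdc45*, a helicase component, by 0.92 and *Gins2*, its partner, by 0.87. The 1 gene called lower was *Tyms*, thymidylate synthase, at -1.26, but another of its probe sets was called higher, so its direction is not settled. Of 21 cyclins, CDKs and CDK inhibitors 10 were higher and 1 lower (median 0.40), and after gene-table centring 5 were higher and 2 lower (median 0.12). Among the higher members were inhibitors and a pocket protein that restrain the cycle: *Cdkn2d* (10.24 to 10.94 in MERP against 9.36 to 9.68), *Rbl2* (8.87 to 9.64 against 7.60 to 8.61) and *Cdkn2c* (difference 0.78). Of 19 DNA repair genes 9 were higher and none lower, with only 1 holding.

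The list with the largest share of higher members was the proteasome, the protease complex that degrades ubiquitinated proteins. Of 25 subunits 24 were higher in MERP and none lower, with a median of 0.65. 12 held under all scalings, and after gene-table centring 13 were higher and 1 lower (median 0.37 beside -0.14). Without single arrays 20 to 24 were higher, fewest without *Ptch1*+/- array 4. *Psmc3*, an ATPase of the base, was 12.10, 11.78, 11.62, 12.01 and 11.98 in MERP and 11.15, 10.92, 10.96 and 10.53 in *Ptch1*+/- tumours. The groups were apart, at 2.01-fold (1.01, SE 0.12, adjusted p = 3.86e-06). The core subunits *Psmb1* and *Psma6* rose by 0.88 and 0.66 and the ATPase *Psmc2* by 0.58, the last of which did not hold. The member that did not pass was *Psmd11*, a lid subunit, at -0.08.

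Other lists of abundant housekeeping genes also had more higher than lower calls as deposited, and fewer of these calls held under all scalings. Of 30 subunits of oxidative phosphorylation 23 were higher and none lower (median 0.37), and 4 held. *Uqcrq*, of complex III, and *Sdhb*, of complex II, rose by 0.84 and 0.95. Of 20 cytosolic ribosomal proteins 11 were higher and none held (median 0.26). Of 24 ribosome biogenesis factors 9 were higher, none lower and 3 held (median 0.24), with 5 higher without *Ptch1*+/- array 2. Of 20 chaperones 10 were higher and 1 lower, with 4 and 1 holding. Of 21 glycolysis and hypoxia genes 6 were higher and 1 lower, near the shares of all genes, with 1 and 1 holding, and 10 were higher without *Ptch1*+/- array 1. After gene-table centring 1 was higher and 2 lower. The array medians moved in the same direction as these lists, and their part in them was not tested beyond the scalings.

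Spliceosome genes split, with 11 of 29 higher and 4 lower (median 0.13). After gene-table centring 3 were higher and 10 lower, and the 4 lower calls were 2 without MERP array 1 or MERP array 4. Core snRNP and splicing factor subunits were among the higher members, *Sf3a3* by 0.92, *Snrpf* by 0.88 and *Prpf31* by 0.74. *Srrm2*, a large scaffold protein of nuclear speckles, was 10.78 to 11.70 in MERP and 12.10 to 12.87 in *Ptch1*+/- tumours. It fell by 1.23 (SE 0.20, adjusted p = 9.121e-05), as did both of its other probe sets. *Malat1*, described above, is the RNA of the same speckles. Of 11 nuclear long noncoding RNAs 2 fell, *Malat1* and *Kcnq1ot1*, the imprinted antisense RNA of *Kcnq1* (8.05 to 9.08 in MERP against 9.68 to 10.46, with 4 of 5 other probe sets lower), and the median of the list was 0.24.

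**Figure D4:**
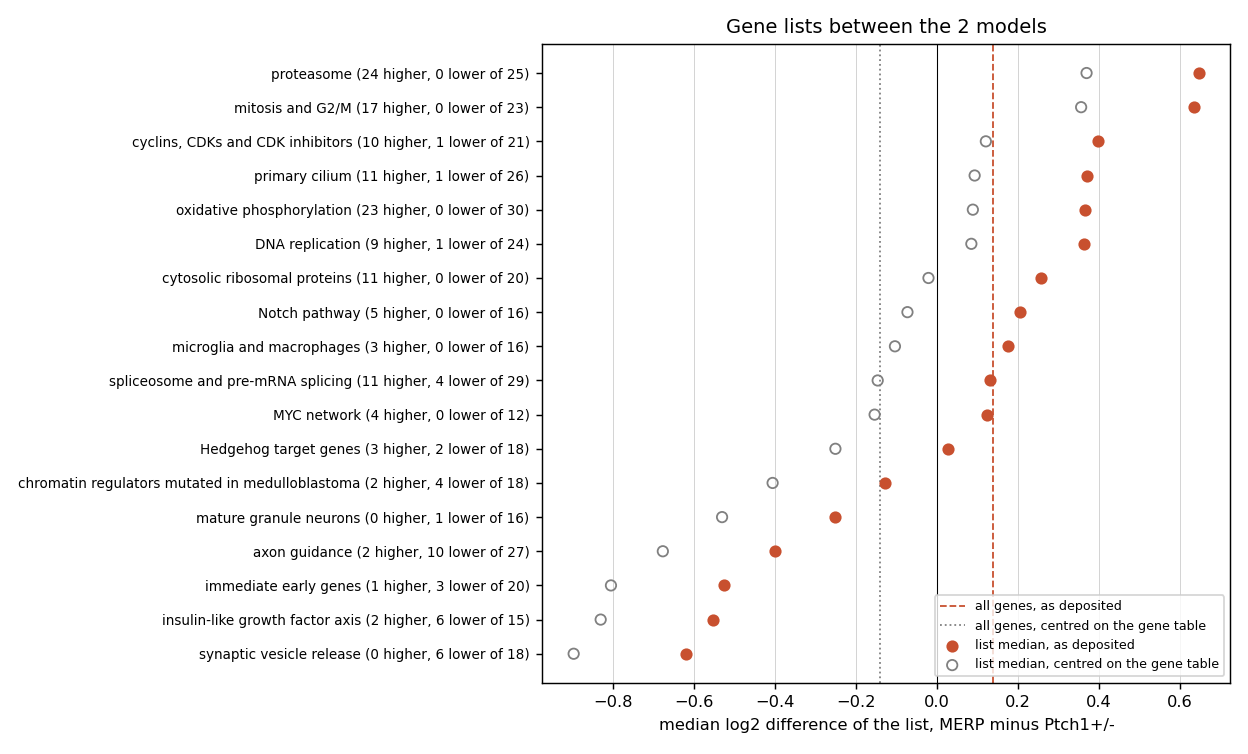
Median log2 difference, MERP minus *Ptch1*+/- (horizontal axis), of 18 gene lists as deposited (filled) and after centring on the gene table (open), with the number of members called beside each name and dashed and dotted lines at the medians of all genes. Proteasome and mitosis lie furthest to the right at 0.65 and 0.63, and synaptic vesicle release and the insulin-like growth factor axis furthest to the left at -0.62 and -0.55.

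Genes of the insulin-like growth factor axis, which acts with Hedgehog signalling in precursor growth, were more often lower than higher. Of 15 members 6 were lower, 2 were higher and 7 did not pass, with a median of -0.55, and all 6 lower calls held. *Igf1r*, the receptor for both ligands, was 9.29, 9.62, 9.39, 8.72 and 9.13 in MERP and 10.48, 10.73, 10.71 and 10.66 in *Ptch1*+/- tumours. The groups were apart by 2.67-fold (difference -1.42, SE 0.18, adjusted p = 9.082e-06), and 3 of 4 other probe sets fell. The scavenger receptor *Igf2r* fell by 1.43, the binding protein *Igfbp4* by 1.46 and the insulin receptor *Insr* by 0.95. The 2 members that rose were the ligands, *Igf2* (above) and *Igf1*, by 0.45. Neither ligand passed under all scalings, and *Igf1* was also lost without any of 4 arrays (*Ptch1*+/- 2 or 4, MERP 3 or 4, adjusted p between 0.065 and 0.15). *Grb10*, which binds these receptors, was among the largest rises.

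In the Wnt list of antagonists and targets 3 of 15 were higher and 4 lower, the latter down to 2 without *Ptch1*+/- array 2 or 4 or MERP array 4 or 5. *Sfrp2*, a secreted antagonist, was 10.33, 10.48, 10.55, 9.34 and 9.74 in MERP and 12.32, 11.64, 11.28 and 11.42 in *Ptch1*+/- tumours, all apart (difference -1.58, SE 0.30). *Sfrp1*, described above, was also lower, but its call did not hold under all scalings. *Wif1* was higher in MERP, with the groups overlapping. *Lgr5*, a receptor for R-spondins, fell by 1.12 and the R-spondin *Rspo1* rose by 0.89, which did not hold.

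Of 16 Notch pathway genes 5 were higher and none lower (median 0.20, beside 0.14 over all genes), with 3 holding. The shares of higher genes in this list and in the MYC and cholesterol lists that follow were not far from the 25.9% of all genes. *Hes5*, a Notch target of neural progenitors, was 8.27, 8.95, 7.56, 7.56 and 6.76 in MERP and 4.94, 6.38, 6.43 and 6.51 in *Ptch1*+/- tumours. The groups were apart, with MERP array 5 near the *Ptch1*+/- arrays, and the difference was 1.76 (SE 0.35, adjusted p = 0.00062). The co-activator *Maml1* and the *Hes* family member *Hes6* rose by 0.84 and 0.74. Of 20 BMP pathway genes 2 were higher and 2 lower, among them the ligand *Gdf10* (rise of 1.60, also a marker of Bergmann glia) and the antagonist *Chrd* (difference -0.89). Of 12 MYC network genes 4 were higher and none lower, led by *Mycl*, a MYC paralogue (0.9965), and *Mxd3*, a MAX partner of dividing precursors (0.88). In cholesterol synthesis, which supplies the sterols that act on Smoothened, 4 of 18 were higher and 3 lower. *Fdps*, farnesyl diphosphate synthase, rose by 1.67, and *Cyp51*, lanosterol demethylase, and *Srebf2*, the factor that controls the pathway, fell by 0.88 and 0.67.

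The primary cilium, the organelle in which Smoothened and GLI proteins are processed, had 11 of 26 genes higher and 1 lower (median 0.37). 5 of them held, and 7 were higher without *Ptch1*+/- array 2. *Ift20*, which links intraflagellar transport to the Golgi, was 8.86 to 9.34 in MERP and 7.70 to 8.43 in *Ptch1*+/- tumours (rise of 1.18, SE 0.14, adjusted p = 4.459e-06). Of the other transport genes *Ift74* rose by 1.14, *Ift52* by 0.87 and the kinesin motor *Kif3b* by 0.68.

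Genes of synaptic vesicle release and axon guidance had more lower than higher calls. Of 18 genes of synaptic vesicle release 6 were lower and none higher (median -0.62), all 6 held, and 4 to 6 were lower with single arrays left out. *Unc13a*, a priming factor of vesicle fusion, was 7.32, 7.48, 8.08, 6.86 and 7.10 in MERP and 8.47, 8.74, 8.83 and 9.15 in *Ptch1*+/- tumours. The ranges were apart, with a difference of -1.43 (SE 0.26, adjusted p = 0.00030). *Syp*, an integral vesicle protein, fell by 0.99 and the vesicle GTPase *Rab3a* by 0.54. Of 27 axon guidance genes 10 were lower and 2 higher (median -0.40), 7 and 1 of which held. The netrin-G *Ntng1* fell by 1.499, the netrin receptor *Unc5b* by 1.14 and the semaphorin receptor *Plxnb2* by 1.12, while *Nrp2*, another semaphorin receptor, rose by 0.88. None of the 3 further *Ntng1* probe sets passed.

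Markers of differentiated granule neurons are read beside the 6.08% of all genes that were lower. Of 17 genes of early postmitotic neurons 2 were lower (median -0.36), the adhesion molecule *Cntn1* at -1.41 and the dendritic protein *Map2* at -0.50. Both lower calls held, and 4 were lower without *Ptch1*+/- array 3. Of 16 mature granule neuron genes 1 was lower and none held (median -0.25), with 0 to 3 lower when single arrays were left out, most without *Ptch1*+/- array 1 or MERP array 1 and 0 without *Ptch1*+/- array 2 or 4 or MERP array 4 or 5. Of 9 genes of inhibitory interneurons 1 was higher, *Pvalb*, and none lower (median 0.03). Immediate early genes, induced rapidly by stimulation or handling, had a median of -0.53 with 1 of 20 higher and 3 lower, and 8 were lower without MERP array 5. *Fosb*, an AP-1 subunit, was 4.99, 8.60, 5.97, 7.34 and 8.99 in MERP and 10.35, 8.34, 9.61 and 8.69 in *Ptch1*+/- tumours. The MERP arrays were widely spread and the groups overlapped, although the difference of -2.07 passed (SE 0.59, adjusted p = 0.0097). *Nr4a1*, a nuclear receptor of the same response, fell by 0.95.

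A list of chromatin regulators and other genes mutated in human medulloblastoma included 2 of 18 that were higher and 4 that were lower, and all 6 held. The remodelling subunit *Smarcb1* rose by 0.70 and the isocitrate dehydrogenase *Idh1* by 0.74. The E-protein *Tcf4* fell by 0.48 and *Arid1a*, another remodelling subunit, by 0.47. In the Polycomb PRC2 list the core subunit *Eed* rose by 0.65 and the accessory subunit *Jarid2* fell by 0.77. 2 of 11 were higher and 3 lower, and the latter fell to 1 without *Ptch1*+/- array 3 or 4.

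Immune and stromal markers were examined because a tumour piece holds more than tumour cells. Of 16 microglia and macrophage markers 3 were higher and none lower, 1 of which held (median 0.17), and 1 to 6 were higher with single arrays left out, most without *Ptch1*+/- array 1 and 1 without *Ptch1*+/- array 3 or 4 or MERP array 2, 3 or 4. Mean levels of this list were 7.19 to 8.02 in MERP and 6.65 to 8.49 in *Ptch1*+/- arrays, so the groups overlapped. *Aif1*, a cytoskeletal protein of microglia, rose by 1.22 (6.75 to 7.78 against 5.57 to 6.68). Of 8 T and B cell markers none was higher and 2 were lower, among them *Cd8a*, a T cell co-receptor, at -0.56, with list means of 4.89 to 5.25 and 5.04 to 5.18.

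A set of 3 immunoglobulin transcripts was higher in 4 of the 5 MERP arrays. *Jchain*, the joining chain of polymeric immunoglobulins, was 4.81, 8.37, 8.61, 9.18 and 9.91 in MERP and 6.13, 4.69, 4.70 and 4.45 in *Ptch1*+/- tumours. MERP arrays 2 to 5 were above all *Ptch1*+/- arrays and MERP array 1 was not. The immunoglobulin heavy chain constant genes *Ighm* and *Igha*, named after their values had been seen, showed the same division, *Ighm* with 6.78, 8.76, 9.20, 10.40 and 9.57 in MERP against 7.32, 7.05, 6.57 and 6.31. *Igha* was 7.10, 9.03, 8.94, 9.31 and 10.82 against 7.37, 7.16, 6.76 and 6.19. They rose by 2.13 and 2.17. The macrophage products *Arg1*, an arginase, and *Chil3*, a chitinase-like protein, also chosen after their values were seen, rose by 2.30 and 2.14, highest in MERP array 3 (8.24 and 9.78). *Arg1* was near background in *Ptch1*+/- tumours, so its rise is a lower limit.

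Of 14 interferon-stimulated genes 1 was higher, *Ifih1*, a sensor of viral RNA, by 1.58. Of 14 antigen presentation genes 2 were higher and both held, among them the immunoproteasome subunit *Psmb8* by 0.90. Matrix genes were 5 of 19 higher and 2 lower, the higher share near the 25.9% of all genes, with the collagen *Col5a2* up by 2.08, the matricellular protein *Postn* up by 1.28 and the brain proteoglycans *Ncan* and *Vcan* lower (differences of -1.298 and -1.43). Of 11 meningeal and fibroblast markers 2 were higher and 1 lower, *Islr* up by 1.99 and the proteoglycan *Dcn* lower, at -1.44. No member was called among 11 Purkinje cell, 11 oligodendrocyte, 8 choroid plexus, 5 erythroid and 11 photoreceptor genes. Of these 2, 2, 0, 2 and 5 were near background in both groups, where a difference can go unseen. Of 14 astrocyte and Bergmann glia genes 3 were higher and 1 lower. Of 11 neural stem cell and 9 skeletal muscle genes 2 each were higher. Of 14 endothelial and pericyte, 7 oligodendrocyte precursor and 7 unipolar brush cell and rhombic lip genes 1 each was lower. Mean levels of the choroid plexus list were 6.10 to 7.11 in MERP and 5.29 to 8.21 in *Ptch1*+/- arrays, and those of the erythroid list 4.89 to 5.28 and 4.81 to 5.29.

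The position of the called genes in the genome was examined for each chromosome, on the 450 chromosome 6 genes above the GNP median and their counterparts elsewhere, after centring each array on the gene table. Against the GNP mean, chromosome 6 genes had a median of 0.43, 0.44, 0.41 and 0.41 in *Ptch1*+/- arrays 1 to 4. In MERP arrays 1 to 5 it was 0.26, 0.09, 0.09, 0.40 and -0.03. All *Ptch1*+/- arrays were thus raised, MERP array 4 was raised nearly as far, MERP array 1 in part and the other 3 little or not. The 171 medians of the other autosomes and X lay between -0.19 and 0.20. In each of 3 parts of chromosome 6 along its length, with 150 genes in each, the 4 *Ptch1*+/- arrays and MERP array 4 lay above the other 4 MERP arrays. MERP array 4 was inside the *Ptch1*+/- range in the first part (0.38, against 0.29 to 0.49) and the second (0.39, against 0.34 to 0.41) and below it in the last (0.45, against 0.49 to 0.60). Copy number was not measured.

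Among the autosomes and X, chromosome 6 had the smallest share of genes that held as higher, 32 of 992 (3.23%), and the largest share that held as lower, 86 (8.67%). The other autosomes and X had 10.0% to 13.5% higher and 2.42% to 6.16% lower. On Y, with 9 measured genes, none held as higher and 3 as lower. Without chromosomes 6, X and Y, 4443 of 16575 genes were higher and 965 lower, with 1968 and 730 under all scalings. Genes near *Ptch1* on chromosome 13 were counted because the models carry different engineered alleles there. Of the 200 measured genes nearest to it, 100 on either side, 47 were higher and 5 lower, and 18 and 2 held, shares below those of all genes (25.9% and 6.08%, with 11.3% and 4.67% holding).

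**Figure D5:**
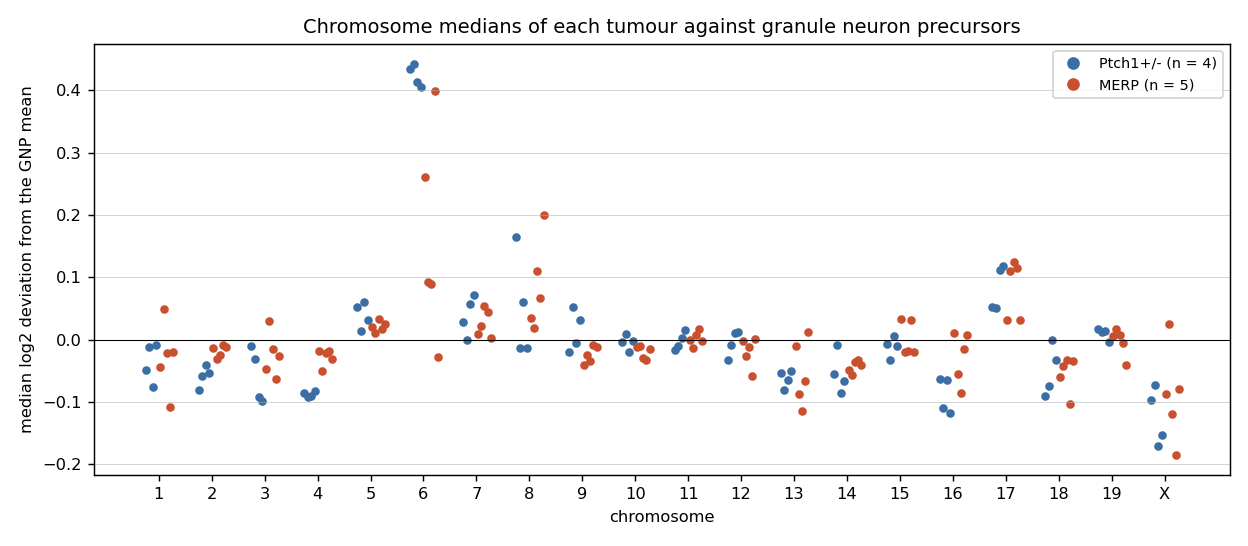
Median log2 deviation from the GNP mean (vertical axis) of the genes of each chromosome (horizontal axis), 1 point per array, after centring on the gene table, for genes above the GNP median. Chromosome 6 stands apart at 0.41 to 0.44 in the 4 *Ptch1*+/- arrays and spreads from -0.03 to 0.40 over the 5 MERP arrays, while the other autosomes and X lie between -0.19 and 0.20.

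Falls were more common in long genes. Genes were divided into 5 parts by the span of their locus, and in the longest (64.3 to 3171 kb) 21.1% were higher and 11.2% lower. In the shortest (0.064 to 6.30 kb) 25.4% were higher and 3.25% lower. Under all scalings the longest held 310 higher and 322 lower genes of 3606, and the shortest 445 and 90 of 3606. Arrays differed in the longest part. Its median deviation from the mean of the 9 arrays, beside that of all genes, was -0.16 in MERP array 4. It was 0.081 and 0.071 in *Ptch1*+/- arrays 2 and 4, and between -0.019 and 0.013 in the remaining arrays. Long noncoding RNAs were 12.04% higher and 4.51% lower, and protein-coding genes 27.3% and 6.21%. The shares called also differed by level. Of 4 parts by level in GNPs, the lowest had 5.96% higher and 1.67% lower, and the highest 40.1% and 9.7%. What level contributes to the difference between noncoding and coding genes was not tested.

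The levels of GNPs were used to see which model lay nearer to them, which does not show which model had moved. MERP tumours were nearer the GNP mean than *Ptch1*+/- tumours in 88.8% of the genes that held as higher and in 70.9% of those that held as lower, beside 62.6% of all genes. After centring on the gene table these shares were 53.9%, 84.9% and 68.9%. The share among higher genes thus depended on the scaling. Genes named above went both ways as deposited, and these are examples. *Mdk*, *Grb10*, *Gli3*, *Igf2*, *Hes5* and *Malat1* were nearer GNPs in MERP tumours. *Ptch1*, *Pax6*, *Atoh1*, *Neurod1*, *Scg2*, *Itih3*, *Tmem163*, *Krt12*, *Krt10*, *Jchain* and *Pvalb* were nearer GNPs in *Ptch1*+/- tumours.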

How the data were processed

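RNA of 5 MERP and 4 *Ptch1*+/- tumours, and of the 14 other samples of the series, was hybridised to mouse whole-genome expression arrays of Affymetrix. The authors computed the deposited values, log2 intensities, with Affymetrix Expression Console 1.3.1 by RMA, per the labels and the study's methods. RMA makes the distributions of arrays processed together alike. Which arrays were processed together is not stated. All 45101 values of each array were used as deposited, and none was missing. The small number of arrays limits the precision.

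Probe sets were annotated from GEO's platform table, with 34945 annotated to 1 gene (34741 matched by Entrez identifier), 932 to several, 9160 to none and 64 controls. Each gene was read by its brightest probe set on average over the 23 arrays. There were 18193 genes, 9183 of them with a single probe set. Groups came from the sample titles.

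MERP was compared with *Ptch1*+/- by linear models with empirical Bayes moderation (limma 3.58.1, R 4.3.3), fitted to 6 groups at once, the 3 CRISPR tumours as 1 group, with Benjamini-Hochberg adjustment over all genes and a threshold of 0.05. All adjusted p-values are from this fit unless stated. The fit was tested on simulated data. The 5 scalings were the deposited one, centring on the median of all probe sets or of the gene table, and quantile normalisation of either. A group mean at or below the mean lower quartile of its arrays (4.49 in MERP, 4.51 in *Ptch1*+/-) was called near background. Array medians were compared with exact permutation tests (SciPy 1.17.1 in Python 3.11.15), which cannot go below p = 0.016 with 5 against 4 arrays.

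The comparison, the 50 gene lists and the named genes were chosen with earlier results of these data known. The rule for named genes was the 15 largest and 15 smallest differences among genes called with the same sign under 5 scalings, 8 Hedgehog and precursor genes, up to 4 members of a list with the smallest p, single members that a sentence needed, and sex-linked genes. *Ighm*, *Igha*, *Arg1* and *Chil3* were added after their values were seen. Promoters and gene positions are from RefSeq for GRCm38.p6, and 18028 genes had a position. Alternatives were other scalings and probe set choices, a filter on dim genes, other variance models, a 2-fold minimum, the control gap as a covariate, a replicate block and leaving out each array. Counts without chromosomes 6, X and Y, and list counts with arrays left out, were added after seeing the data.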

Additional observations from a re-analysis of the deposited data

Results flagged for a closer look

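Of 300 groups of arrays looked at, 1 for each model of each named gene and chromosome, 20 held an array far from the rest of its group, where chance gives about 1 in 20, or 15. *Ptch1*+/- array 1 stood out in 8 of them, MERP array 5 in 5 and *Ptch1*+/- array 3 in 4.

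*Ptch1*+/- array 3 was the high array for *Xist* at 12.73 (the other 3 at 5.94 to 6.20) and the low one for *Eif2s3y* at 3.14 (10.12 to 10.25), *Kdm5d* at 2.98 (7.97 to 8.99) and *Uty* at 3.03 (7.12 to 7.77). *Ptch1*+/- array 1 was high for *Jchain* at 6.13 (4.45 to 4.70), *Wif1* at 5.49 (3.34 to 3.63), *Itih3* at 7.48 (6.57 to 6.65), *Cdc45* at 8.42 (7.95 to 8.02), *Hes6* at 10.04 (9.31 to 9.39) and *Srebf2* at 9.71 (9.29 to 9.36). It was low for *Malat1* at 12.58 (13.995 to 14.07) and *Hes5* at 4.94 (6.38 to 6.51). For *Hes5* and *Srebf2* this array lay away from the MERP arrays, and for the other 6 it lay towards them.

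MERP array 5 was low for *AI506816* at 4.56 (the other 4 at 8.50 to 9.14), *Lin7a* at 10.48 (11.23 to 11.49) and *Ncan* at 9.45 (10.21 to 10.37), and high for *Galc* at 8.44 (4.10 to 4.40) and *Pvalb* at 12.06 (7.91 to 8.88). MERP array 3 was low for *Krt12* at 6.92 (10.07 to 10.94) and *Ift20* at 8.86 (9.23 to 9.34), and MERP array 1 was high for *Scg2* at 6.48 (5.23 to 5.55).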

How the results depend on the processing

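With gene-table centring 2094 genes were higher and 3093 lower, and with its quantile normalisation 2799 and 2208. A 2-fold minimum left 1092 genes (805 higher, 287 lower), and 1044 under all scalings (763 and 281). With the spread taken from the MERP and *Ptch1*+/- arrays only, 4775 genes passed (3882 higher, 893 lower), and 2233 under all scalings (1537 and 696). With the probe set of highest SD for each gene 1981 genes were lower, and 5114 held under all scalings (3393 higher, 1721 lower), while *Ptch1*, then read by its second probe set, differed by 0.94 and missed the threshold (adjusted p = 0.089, against 2.448e-06 to 0.0046 under its other alternatives). *Psma6* then differed by -0.53 and *Psmd11* by 0.54. The cause of these changes was not tested. Leaving out each array in turn gave 4800 to 6184 genes (3879 to 5009 higher, 877 to 1178 lower), 2235 to 3027 under all scalings (1539 to 2188 and 668 to 915) and 12373 to 16328 probe sets.

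With the replicate number as a block 4481 genes passed (2107 under all scalings), with *Ptch1* at 1.21. Of 119 printed genes that had passed, 9 missed the threshold in that fit. Deviations of same-numbered arrays correlated at 0.14, 0.10, 0.23 and -0.01. Because 1 pair did not correlate and the labels tie no numbers together, the numbers were not treated as pairs, although 3 of 4 *Ptch1*+/- arrays matched their own number best, which is a hint from the data and not the design.

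Signs turned for values that had not passed and for *Psma6* as above. *Gli1* was -0.26 with gene-table centring, -0.086 and -0.15 with quantile normalisation of all probe sets and of the gene table, and -0.15 to 0.15 with single arrays left out. *Hhip* was -0.16 under both gene-table scalings and -0.0985 to 0.57 with single arrays left out. *Mycn* was -0.24, -0.033 and -0.023 under the same 3 scalings as *Gli1* and -0.023 to 0.097 with single arrays left out. *Top2a* was -0.10 with gene-table centring and -0.20 with the mean of probe sets, and *Psmd11* was 0.0265 with centring on all probe sets and 0.063 with the mean. Of 119 printed genes that passed, 95 stayed on the same side with the same sign in every alternative but the 2-fold minimum and the scalings.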
